A study of Culex quinquefasciatus and Culex pipiens molestus with 2 samples.

Results

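Insects meet infection with secreted effectors and with proteolytic cascades that serpins hold in check. Recognition of microbes leads through the Toll and Imd pathways to the synthesis of antimicrobial peptides, mainly in the fat body, and a second cascade converts prophenoloxidase into phenoloxidase, which starts the deposition of melanin around invaders and in wounds. Lysozymes cleave the peptidoglycan of bacterial cell walls and in mosquitoes are also known from the salivary glands and the gut. The genes described here are the 59 of 16198 transcript models whose product description names a defensin, cecropin, gambicin, attacin, diptericin, lysozyme, phenoloxidase, dopachrome enzyme, serpin or other serine protease inhibitor, antitrypsin, antichymotrypsin, Toll, spaetzle, cactus or relish. They were 5 antimicrobial peptides, 6 lysozymes, 1 prophenoloxidase, 30 serpins and serine protease inhibitors, and 17 models of the Toll pathway. No model carried the words gambicin, attacin, diptericin, dopachrome, cactus or relish, which says only how the models are described.

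Polyadenylated RNA was sequenced from females of a laboratory strain of Culex pipiens molestus, a form able to lay its eggs without taking blood, and of a laboratory strain of Culex pipiens quinquefasciatus, the southern house mosquito. RNA of 30 females of each was pooled into 1 library per taxon. The sources used here do not give age, feeding state or exposure to microbes, and a taxon and its library cannot be told apart. The tables were assigned to the taxa by the abbreviations in their names, and every direction depends on this.

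Depth was 9.79 M (mega) reads over 14834 listed models for molestus and 10.17 M reads over 15438 for quinquefasciatus. Levels are given in RPKM, the reads of a model per kilobase of its length and per M of the library, which allows levels of different models to be compared. A fold is the ratio of RPKM, molestus over quinquefasciatus, with an exact 95% interval from the counts of both libraries. Such intervals hold no more than the counting error, since PCR copies are not independent molecules. There was no replicate and no p-value was computed. A model was compared on the log2(RPKM + 1) scale if it had at least 1 RPKM in either library, and was counted as higher in either taxon when the ratio on that scale was at least 2-fold. Of all 12789 compared models, 22.8% were so counted as higher in molestus and 18.0% as higher in quinquefasciatus, 40.8% together, with a median log2 ratio of 0.18. Rescaling by the median ratio would shift every log2 ratio by -0.30, and rescaling by trimmed mean of M-values (TMM) factors by -0.21.

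Of the 59 models, 46 were compared and 24 lay within 2-fold. Counted as higher in molestus were 9 and in quinquefasciatus 13, against 22.8% and 18.0% of all compared models. The median log2 ratio of the 46 was -0.30. Intervals of the fold were wholly above 1 for 14 of the 46 and wholly below 1 for 20, against 43.6% and 31.2% of all compared models. Members that reached 1 RPKM in 1 library only had their direction set by the filter. Among serpins these were 4 in quinquefasciatus and 0 in molestus, and in the Toll group 6 and 1. The counts and median of all members therefore support nothing. At a minimum of 10 RPKM the median of the members was 0.34, against 0.47 over all models at that minimum. The remaining 13 models reached at most 0.880 RPKM and 23 reads in either library. Of the 59, 9 had reads in 1 library only, 3 in molestus and 6 in quinquefasciatus. Of all 16198 models, 760 had reads in molestus only and 1364 in quinquefasciatus only. Summed over the 59 models, the share of reads was 0.1601% (0.1576 to 0.1626) in the molestus library and 0.1472% (0.1449 to 0.1496) in the quinquefasciatus library. This near balance held groups that differed in direction. Summed lysozyme reads were lower in molestus, and the most abundant serpin was higher there. Among the antimicrobial peptides an abundant cecropin was lower in molestus, while the summed reads of the 4 rarer peptides were higher.

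**Figure D1:**
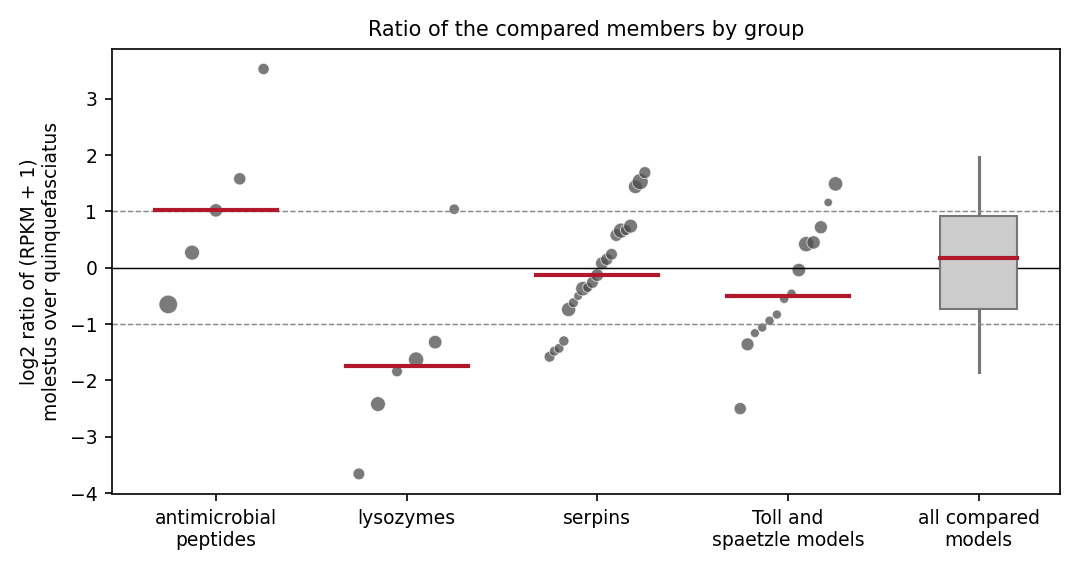
Log2 ratio of (RPKM + 1), molestus over quinquefasciatus, for the 46 compared members by group; each point is 1 model, its area grows with the mean level, red bars are group medians and dashed lines mark 2-fold. The grey box shows the quartiles of all 12789 compared models (-0.73 and 0.93) and its line the 5th to 95th percentile (-1.85 to 1.98). Of 6 lysozymes 5 lie below the lower dashed line, among them CPIJ002161 and CPIJ009359, which reached 1 RPKM only in quinquefasciatus.

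Cecropins are linear peptides that insert into and disrupt bacterial membranes, and 4 models carried the name. Cecropin-B1 (CPIJ005108), by far the most abundant model of all 59, stood at 886 RPKM in the molestus library and at 1388 RPKM in the quinquefasciatus library, from 2776 and 4516 reads. It was thus lower in molestus, at 0.638 of the quinquefasciatus level (0.609 to 0.670), and it ranked 140th in molestus and 113th in quinquefasciatus among the listed models. After rescaling by the median ratio or by TMM, the fold was 0.520 or 0.553. Reads covered 97.8% of its length in molestus and 99.7% in quinquefasciatus.

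The other cecropins carry consecutive identifiers, CPIJ010699, CPIJ010700 and CPIJ010701, and were much rarer. Cecropin-A (CPIJ010699) had 65.4 RPKM in molestus and 54.2 RPKM in quinquefasciatus. The interval of its fold of 1.21 included 1 (0.993 to 1.46), and the fold was 0.982 after rescaling by the median ratio. The molestus reads covered 73.4% of its length, although they were more numerous, at 231 against 199, than the quinquefasciatus reads, which covered 94.7%. Cecropin-A2 (CPIJ010701) stood at 27.1 RPKM in molestus against 12.8 RPKM in quinquefasciatus, a fold of 2.11 (1.39 to 3.26). Cecropin-B (CPIJ010700) had 31 molestus reads and 0 quinquefasciatus reads, so against a floor of 3 reads it was at least 10.7-fold higher in molestus. The molestus reads covered 78.4% of that model. With a floor of 10 reads the bound was 3.22-fold.

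Together the cecropins made up 0.0318% (0.0307 to 0.0329) of the molestus and 0.0467% (0.0454 to 0.0481) of the quinquefasciatus reads, a fold of 0.680 (0.650 to 0.711). Cecropin-B1 alone took 89.3% of cecropin reads (88.1 to 90.4) in molestus and 95.1% (94.4 to 95.7) in quinquefasciatus, and cecropin-A took 7.43% (6.53 to 8.41) and 4.19% (3.64 to 4.8). The make-up of the family therefore differed beyond counting error, whatever scale is used for the libraries. These models are 268 to 361 bases long, and 90-base reads that match more than 1 near-identical cecropin were not counted, so the division among single models is uncertain.

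Defensin-C (CPIJ001276), a cysteine-stabilised peptide of a family that acts mainly on Gram-positive bacteria, had 73 reads in molestus and 22 in quinquefasciatus. This corresponded to 15 RPKM in molestus against 4.36 RPKM in quinquefasciatus, a fold of 3.45 (2.11 to 5.83). Over the 5 antimicrobial peptides, 3 were counted as higher in molestus and 0 as higher in quinquefasciatus, against 22.8% and 18.0% of all compared models. After either rescaling they were 2 and 0. Cecropin-B reached 1 RPKM only in molestus, so its direction followed from the filter. Cecropin-A2, whose log2 ratio of 1.02 was also the median of the 5, lay at the threshold. The counts and median therefore support nothing. The summed reads went the other way, at 3182 in molestus and 4772 in quinquefasciatus or a fold of 0.693 (0.662 to 0.725), because cecropin-B1 dominates the sum. Without it the fold of summed reads was 1.65 (1.41 to 1.93).

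**Figure D2:**
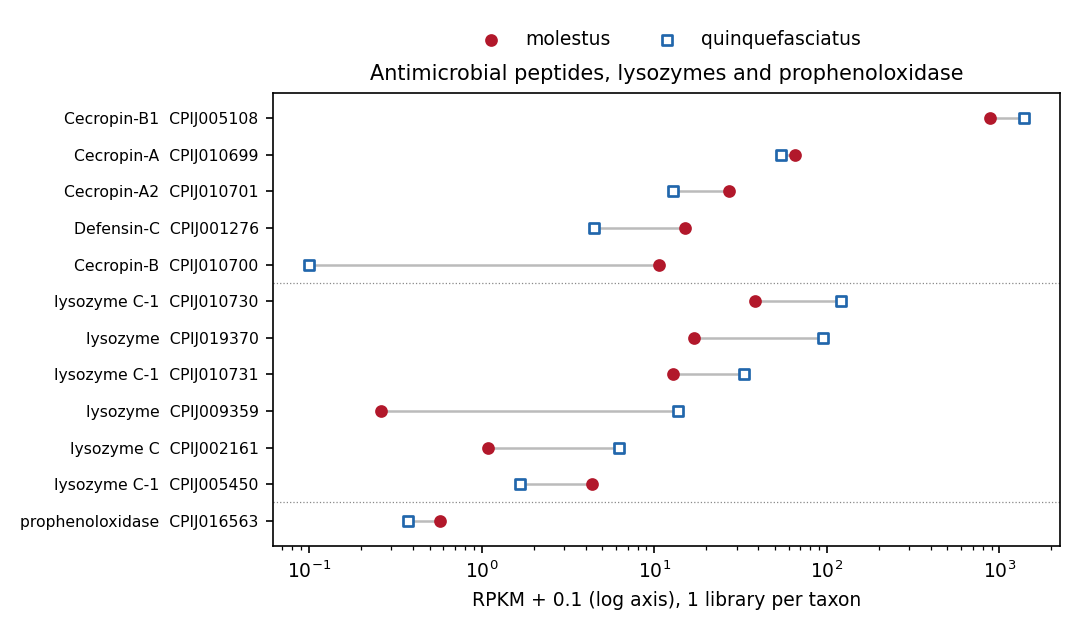
RPKM plus 0.1 on a log axis of the 5 antimicrobial peptides (top), 6 lysozymes (middle) and the prophenoloxidase (bottom) in the molestus library (filled circles) and the quinquefasciatus library (open squares), 1 library each. In the lysozyme block, squares lie to the right of circles for 5 of 6 models, while in the top block this is so only for cecropin-B1.

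Lysozymes were lower in the molestus library for 5 of 6 models. Lysozyme C-1 (CPIJ010730), the most abundant, stood at 38.2 RPKM in molestus and at 120 RPKM in quinquefasciatus, a fold of 0.318 (0.281 to 0.358). It ranked 3378th in molestus and 699th in quinquefasciatus, with 98.8% and 98.4% of the model covered. The lysozyme C-1 model with the next identifier, CPIJ010731, was also lower, at 12.7 RPKM in molestus against 33.2 RPKM in quinquefasciatus (fold 0.384, 0.284 to 0.513). These neighbours by identifier thus differed between the libraries by folds whose intervals overlapped.

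The models described only as lysozyme precursor were further apart. CPIJ019370 had 16.9 RPKM in molestus and 95.3 RPKM in quinquefasciatus, a fold of 0.178 (0.143 to 0.219). CPIJ009359 had 1 read in molestus and 88 reads in quinquefasciatus, a ratio of 0.0118 (0.000296 to 0.0675), and the quinquefasciatus reads covered 97.8% of its length. Lysozyme C (CPIJ002161), a model of 2568 bases, stood at 0.995 RPKM in molestus and 6.13 RPKM in quinquefasciatus, with a fold of 0.162 (0.102 to 0.248). A further lysozyme C-1 model, CPIJ005450, was the exception, at 4.25 RPKM in molestus against 1.56 RPKM in quinquefasciatus. Its fold of 2.73 (1.16 to 7.12) rests on 21 and 8 reads, which covered about the same share of the model in both libraries, 39.8% and 39.2%.

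Of the 6 lysozymes, 5 were counted as higher in quinquefasciatus, against 18.0% of all compared models, with a median log2 ratio of -1.73. However, CPIJ002161 and CPIJ009359 reached 1 RPKM only in quinquefasciatus, so their direction followed from the filter. The count and median therefore support nothing. Of the models at 1 RPKM or more in both libraries, CPIJ010730, CPIJ010731 and CPIJ019370 were lower in molestus and CPIJ005450 was higher. The median was -1.98 after rescaling by the median ratio and -1.91 by TMM. Summed, the lysozymes held 565 molestus and 2186 quinquefasciatus reads, a fold of 0.268 (0.244 to 0.295). Within the group, CPIJ010730 held 61.4% (57.3 to 65.4) of the molestus and 51.9% (49.8 to 54.0) of the quinquefasciatus lysozyme reads, and CPIJ019370 held 18.8% (15.6 to 22.2) and 28.3% (26.4 to 30.3). In whole females, fewer cells of a type and less RNA per cell cannot be told apart. Models named after midgut enzymes were trypsins, chymotrypsins, peritrophins, maltases and carboxypeptidases A and B. They summed to 2546 RPKM in molestus and 15241 RPKM in quinquefasciatus over 150 models. Of 90 compared, 7 were counted as higher in molestus and 53 as higher in quinquefasciatus, against 22.8% and 18.0% of all compared models. Of these midgut models, 26 were at 0 reads in molestus and 18 in quinquefasciatus. Salivary models summed to 1349 RPKM in molestus and 1347 RPKM in quinquefasciatus over 32 models. Here 1 of 20 compared models was counted as higher in molestus and 11 as higher in quinquefasciatus, against the same shares of all compared models. Of the salivary models 14 were at 0 reads in molestus and 3 in quinquefasciatus. Midgut or salivary models that reached 1 RPKM in 1 library only had their direction set by the filter, so these counts support nothing. The part of midgut and salivary glands in the lysozyme values was not tested.

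Prophenoloxidase, the zymogen of the enzyme that oxidises phenols to the quinones from which melanin forms, was near the detection limit. The model so described, CPIJ016563, had 10 molestus and 6 quinquefasciatus reads, or 0.474 RPKM in molestus and 0.274 RPKM in quinquefasciatus. Reads covered 22.6% of its 2155 bases in molestus and 19.9% in quinquefasciatus. The fold of 1.73 had an interval from 0.570 to 5.80, so no difference was detectable at this depth. This model speaks only for itself, since prophenoloxidases form a gene family in mosquitoes and others may be described by other words.

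The models named after enzymes that make and process the substrates of melanin spanned a wide range of levels, from the decarboxylase CPIJ010568 at 0.587 RPKM in molestus and 1.49 RPKM in quinquefasciatus upwards. Of 13 models on a list of melanin synthesis partners, all compared, 5 were counted as higher in molestus and 3 as higher in quinquefasciatus. The shares of all compared models were 22.8% and 18.0%. The median log2 ratio of the 13 was 0.87. Because CPIJ010568 reached 1 RPKM only in quinquefasciatus, its direction followed from the filter and the median supports nothing. Tyrosine 3-monooxygenase (CPIJ014156), which converts tyrosine to dopa, stood at 1490 RPKM in molestus and 403 RPKM in quinquefasciatus (fold 3.69, 3.6 to 3.79). The aromatic-L-amino-acid decarboxylases, which turn dopa into dopamine, went both ways. CPIJ013307 was higher in molestus, at 131 RPKM against 45.2 RPKM in quinquefasciatus, with a fold of 2.90 (2.66 to 3.17). CPIJ010562 was lower, at 17.3 RPKM in molestus against 136 RPKM in quinquefasciatus, with a fold of 0.127 (0.113 to 0.142). Arylalkylamine N-acetyltransferase (CPIJ012929) was also lower, at 1.88 RPKM in molestus against 13.4 RPKM in quinquefasciatus (fold 0.140, 0.0697 to 0.257). Among models named after the pigmentation protein yellow, CPIJ011423 stood at 133 RPKM in molestus against 31.4 RPKM in quinquefasciatus, CPIJ002395 at 115 against 59.2 RPKM and CPIJ018481 at 62.0 against 21.8 RPKM. Of all 7 yellow models, 3 were counted as higher in molestus and 1 as higher in quinquefasciatus, against 22.8% and 18.0% of all compared models. The 1 higher in quinquefasciatus was CPIJ002394, at 6.73 RPKM in molestus and 15.4 RPKM in quinquefasciatus (fold 0.436, 0.334 to 0.566). CPIJ018480 had a fold of 4.11 (2.63 to 6.66), while the intervals of CPIJ008700, at a fold of 0.911 (0.764 to 1.09), and CPIJ005788, at 0.597 (0.341 to 1.02), included 1. All of these enzymes also serve cuticle tanning, and the decarboxylases and tyrosine 3-monooxygenase serve neurons too.

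Proteases named after the Drosophila clip-domain proteases easter and snake, which in that fly act upstream of Toll, went both ways. Of 63 such models 43 were compared, with a median log2 ratio of -0.68. Counted as higher in molestus were 5 and in quinquefasciatus 15, against 22.8% and 18.0% of all compared models. Some reached 1 RPKM in 1 library only, such as CPIJ006868 and CPIJ010072 in quinquefasciatus and CPIJ009129 and CPIJ019033 in molestus. Their direction followed from the filter, so the counts and median support nothing. The easter-like CPIJ006867, the highest of them in quinquefasciatus, stood at 17.5 RPKM in molestus and 206 RPKM in quinquefasciatus, a fold of 0.0850 (0.0720 to 0.0997). Its neighbour by identifier CPIJ006869 had 9.11 RPKM in molestus and 79.4 RPKM in quinquefasciatus. CPIJ001060, the highest in molestus, stood at 102 RPKM in molestus and 47.7 RPKM in quinquefasciatus (fold 2.15, 1.94 to 2.37). The snake-like CPIJ014649 and the easter-like CPIJ016222 and CPIJ016221 differed by less than 1.5-fold, with folds of 0.863, 0.876 and 0.941.

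Serpins trap their target protease in an irreversible complex, and in insects they restrain the cascades that lead to melanization and to the cleavage of spaetzle. The names serpin B3, B4 and so on are those of similar vertebrate proteins and do not tell which insect protease is the target. The 30 models included 21 that were compared. Of these, 3 were counted as higher in molestus and 4 as higher in quinquefasciatus, against 22.8% and 18.0% of all compared models. The median log2 ratio of the 21 was -0.13. Intervals lay wholly above 1 for 7 and wholly below 1 for 7, against 43.6% and 31.2% of all compared models, and 7 included 1. Summed reads were higher in molestus, at 7775 against 5032 in quinquefasciatus, a fold of 1.60 (1.55 to 1.66). The median and the sum thus differed in sign. However, 4 of the 21 reached 1 RPKM only in quinquefasciatus and 0 only in molestus, so the filter set the direction of these 4. The median and its contrast with the sum therefore support nothing. At a minimum of 10 RPKM the median of the serpins was 0.62, against 0.47 over all models at that minimum.

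Serpin B3 (CPIJ011775) carried most of the difference in the sum. It stood at 218 RPKM in molestus and at 75.1 RPKM in quinquefasciatus, a fold of 2.90 (2.72 to 3.11), or 2.37 after rescaling by the median ratio and 2.52 by TMM. The model ranked 462nd in molestus and 1152nd in quinquefasciatus, with 97.2% and 97.0% of its length covered. It held 41.8% (40.7 to 42.9) of the molestus serpin reads against 23.1% (21.9 to 24.3) of the quinquefasciatus serpin reads. Without it the fold of summed serpin reads was 1.21 (1.16 to 1.27).

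Serpin B4 (CPIJ016697), the next in abundance, had 83.3 RPKM in molestus and 52.2 RPKM in quinquefasciatus, a fold of 1.60 (1.47 to 1.74). It held about the same share of serpin reads in both libraries, 17.4% (16.5 to 18.2) in molestus and 17.5% (16.4 to 18.5) in quinquefasciatus. Serpin B6 (CPIJ014719) and serpin B9 (CPIJ013205) went the other way. Serpin B6 stood at 37.1 RPKM in molestus and 48.1 RPKM in quinquefasciatus (fold 0.771, 0.682 to 0.871), and serpin B9 at 27.8 RPKM in molestus and 47.0 RPKM in quinquefasciatus (fold 0.590, 0.517 to 0.674). Each held 12.4% of serpin reads in quinquefasciatus, while in molestus serpin B6 held 5.95% and serpin B9 4.55%. The antitrypsin CPIJ012016 was higher in molestus, at 36.1 RPKM against 21.2 RPKM in quinquefasciatus, with a fold of 1.70 (1.47 to 1.97).

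A run of identifiers from CPIJ016296 to CPIJ016300 held 4 serpins that differed among themselves. CPIJ016297, described as a serine protease inhibitor, stood at 41.9 RPKM in molestus and 14.8 RPKM in quinquefasciatus, with a fold of 2.83 (2.41 to 3.32). The antichymotrypsin-2 model CPIJ016298 stood at 13.2 RPKM in molestus and 3.40 RPKM in quinquefasciatus, the highest fold of the 21 compared serpins at 3.89 (2.81 to 5.49). The other antichymotrypsin-2 model of the run, CPIJ016300, was nearly level, at 13.0 RPKM in molestus and 14.3 RPKM in quinquefasciatus, with a fold of 0.905 whose interval included 1 (0.732 to 1.12). CPIJ016296 had 1 read in molestus and 0 in quinquefasciatus. Reads covered only part of both antichymotrypsin-2 models: 67.7% in molestus and 51.2% in quinquefasciatus for CPIJ016298, and 63.0% and 74.3% for CPIJ016300. Neighbouring copies that share sequence lose reads under unique assignment, so their single values are uncertain.

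Serpins of other runs of neighbouring identifiers also differed. Serpin B10 (CPIJ009131) had 6.43 RPKM in molestus and 7.88 RPKM in quinquefasciatus, serpin B12 (CPIJ009132) 14.2 and 9.17 RPKM, and CPIJ009134 14.8 and 13.9 RPKM, in the same order of libraries. Only for serpin B12 did the interval leave out 1, at a fold of 1.55 (1.29 to 1.86). The neuroserpin CPIJ014718, named after a mammalian inhibitor of the nervous system, stood beside serpin B6 by identifier and had 9.28 RPKM in molestus and 8.24 RPKM in quinquefasciatus (fold 1.13, 0.844 to 1.5). In the run from CPIJ007024 to CPIJ007026, antichymotrypsin-2 (CPIJ007026) had 12 reads in molestus and 49 in quinquefasciatus, a fold of 0.254 (0.123 to 0.485). Serpin H1 (CPIJ007024) had 33 reads in molestus and 66 in quinquefasciatus, a fold of 0.519 (0.331 to 0.800). Alpha-1-antichymotrypsin (CPIJ007025), with 1 read in molestus and 7 in quinquefasciatus, was not compared, and the interval of its ratio included 1 (0.00329 to 1.15).

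**Figure D3:**
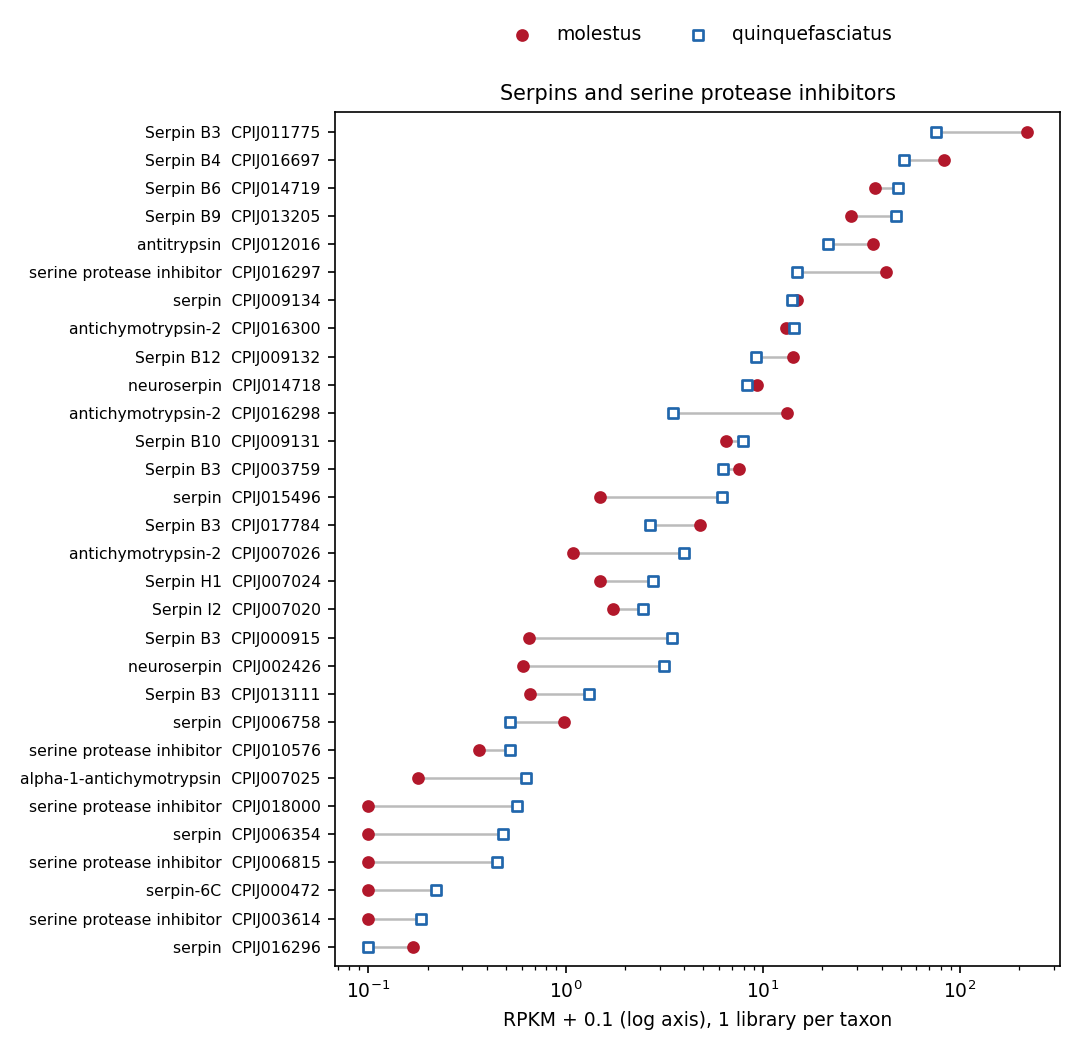
RPKM plus 0.1 on a log axis of all 30 serpins and serine protease inhibitors, ordered by summed level, in the molestus library (filled circles) and the quinquefasciatus library (open squares), 1 library each. Circles lie to the right for the top 2 models, CPIJ011775 and CPIJ016697, and squares lie to the right for most models in the lower part; points at 0.1 are models with 0 reads.

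The 4 serpins counted as higher in quinquefasciatus were rare in both libraries. CPIJ015496 had 7 reads in molestus and 32 in quinquefasciatus, and serpin B3 (CPIJ000915) and neuroserpin (CPIJ002426) each had 4 reads in molestus and 25 in quinquefasciatus. In these models reads covered 21.2% to 29.3% of the length in molestus against 72.8% to 86.0% in quinquefasciatus. Antichymotrypsin-2 (CPIJ007026), with the read numbers given above, was covered to 24.0% in molestus and 84.0% in quinquefasciatus. CPIJ000915, CPIJ002426 and CPIJ007026 were at 0.556, 0.510 and 0.993 RPKM in molestus and thus reached 1 RPKM only in quinquefasciatus, as did CPIJ013111, so their direction followed from the filter and their count supports nothing. Another 9 serpins were below 1 RPKM in both libraries, 5 of them with no molestus reads and at most 4 quinquefasciatus reads.

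Spaetzle is the secreted ligand that, once cleaved, activates the receptor Toll, and both were among the abundant models of the pathway. The spaetzle model CPIJ006792 stood at 90.6 RPKM in molestus and 67.3 RPKM in quinquefasciatus, a fold of 1.35 (1.23 to 1.48) that became 1.10 after rescaling by the median ratio and 1.17 by TMM. Its rank was close in both libraries, 1325th in molestus and 1299th in quinquefasciatus. The model described as protein toll precursor, CPIJ008497, was higher in molestus, at 62.2 RPKM against 21.5 RPKM in quinquefasciatus. Its fold was 2.89 (2.65 to 3.15), or 2.35 after rescaling by the median ratio, and it made up 49.2% (47.7 to 50.8) of the molestus and 24.6% (23.1 to 26.2) of the quinquefasciatus reads of the 17 models. The toll model with the preceding identifier, CPIJ008496, had 6 reads in molestus and 24 in quinquefasciatus, a fold of 0.260 (0.0868 to 0.652), so these neighbours went in opposite directions.

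Among the remaining models described as toll, a family of leucine-rich transmembrane receptors of which only some have a known immune role in Drosophila, the abundant ones also split. CPIJ017195 was lower in molestus, at 2.11 RPKM against 16.6 RPKM in quinquefasciatus, with a fold of 0.127 (0.0796 to 0.195). Its reads covered 58.3% of the model in molestus and 96.5% in quinquefasciatus. CPIJ017600 had 7.96 RPKM in molestus and 21.9 RPKM in quinquefasciatus, with a fold of 0.363 (0.289 to 0.453). CPIJ014953 was level, at 21.9 RPKM in molestus and 22.5 RPKM in quinquefasciatus (fold 0.973, 0.823 to 1.15), and CPIJ007509 stood at 22.9 RPKM in molestus and 16.5 RPKM in quinquefasciatus (fold 1.39, 1.15 to 1.68). The mitochondrial signaling intermediate of the Toll pathway (CPIJ003637), whose mammalian counterpart also serves the assembly of respiratory complex I, had 20.8 RPKM in molestus and 12.2 RPKM in quinquefasciatus, a fold of 1.70 (1.38 to 2.10).

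The other 10 models of the group were below 2 RPKM in both libraries. The toll model CPIJ015802 had 12 reads in molestus and 0 in quinquefasciatus, at least 4.15-fold higher in molestus against a floor of 3 reads and 1.25-fold against a floor of 10. In the opposite direction, CPIJ006310 had 9 reads in molestus and 78 in quinquefasciatus (fold 0.120, 0.0528 to 0.239) and CPIJ009020 had 4 and 21 (fold 0.198, 0.0494 to 0.586). Across the 14 compared models of the group, 2 were counted as higher in molestus and 4 as higher in quinquefasciatus, against 22.8% and 18.0% of all compared models. The median log2 ratio of the 14 was -0.51. Summed reads went the other way, at 4133 in molestus and 2969 in quinquefasciatus, because CPIJ008497 dominates the molestus sum. Of the 14, 6 reached 1 RPKM only in quinquefasciatus and 1 only in molestus, so their direction followed from the filter and the counts and median support nothing.

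**Figure D4:**
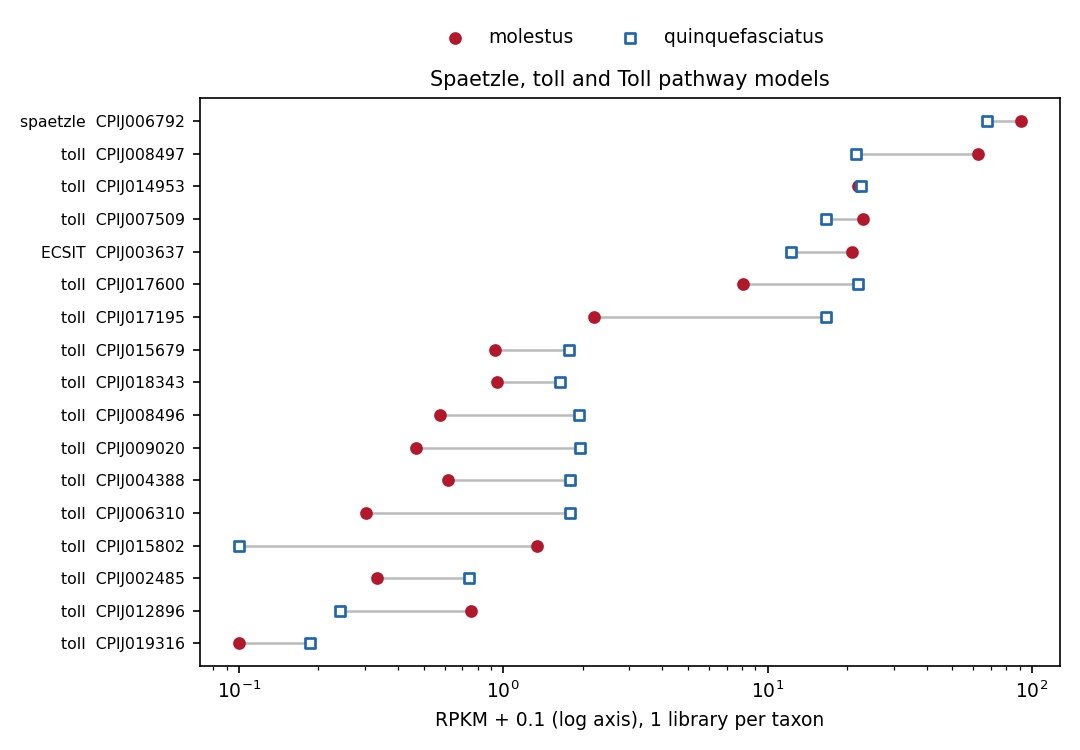
RPKM plus 0.1 on a log axis of spaetzle, 15 models described as toll and the mitochondrial signaling intermediate of the Toll pathway (ECSIT), ordered by summed level, in the molestus library (filled circles) and the quinquefasciatus library (open squares), 1 library each. The circle of CPIJ008497 lies far to the right of its square, while squares lie to the right for CPIJ017600, CPIJ017195 and the 6 models below them.

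Partners of immune signalling were described by a list of their own. Of 20 models on the list of immune signalling partners 19 were compared, with 4 counted as higher in molestus, 1 as higher in quinquefasciatus, against 22.8% and 18.0% of all compared models. Their median log2 ratio was 0.58, and 14 of the 19 had a ratio above 0, or 11 after rescaling by the median ratio, against 55.4% of all compared models on the deposited scale. The NF-kappa-B inhibitor alpha (CPIJ004774), named after the vertebrate relative of the Drosophila inhibitor cactus, stood at 311 RPKM in molestus and 113 RPKM in quinquefasciatus (fold 2.75, 2.61 to 2.90). Pellino (CPIJ008269), a ubiquitin ligase of the Toll pathway, had 64.0 RPKM in molestus and 42.5 RPKM in quinquefasciatus, with a fold of 1.51 (1.36 to 1.67). The model described as inhibitor of nuclear factor kappa-B kinase subunit beta (CPIJ015672) had 35.0 RPKM in molestus and 28.9 RPKM in quinquefasciatus. The model described as NF-kappa-B essential modulator (CPIJ006917) had 35.2 and 27.7 RPKM. Their folds of 1.21 and 1.27 became 0.98 and 1.04 after rescaling by the median ratio. Text matching also brought in SPRY and ankyrin SOCS box proteins, such as CPIJ005988 at 533 RPKM in molestus and 117 RPKM in quinquefasciatus, and the patterning protein Sog, which have no established place in the Toll pathway. These made up 8 of the 19, and without them, a choice made after the values were seen, 2 of 11 were counted as higher in molestus and 1 as higher in quinquefasciatus. The 1 partner counted as higher in quinquefasciatus was the transcription factor dorsal (CPIJ002469), at 6.52 RPKM in molestus and 14.6 RPKM in quinquefasciatus, with a fold of 0.446 (0.369 to 0.538).

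**Figure D5:**
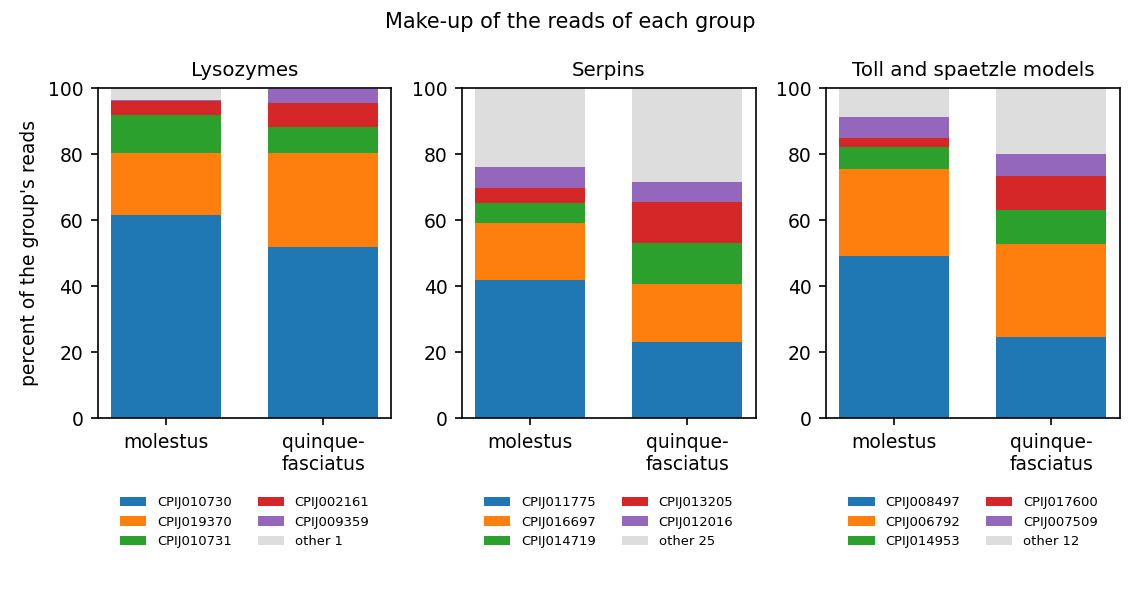
Percent of each group's reads held by its 5 leading models and by the others (grey), in the molestus library (left bar) and the quinquefasciatus library (right bar) of each panel. CPIJ011775 holds 41.8% of molestus against 23.1% of quinquefasciatus serpin reads, and CPIJ008497 holds 49.2% against 24.6% of the reads of the Toll group, whereas CPIJ010730 leads the lysozymes in both.

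Tissues that make these proteins were followed by their own models. Fat body models, which comprise vitellogenins, vitellogenic carboxypeptidases, lipophorins, hexamerins and transferrins, summed to 614 RPKM in molestus and 541 RPKM in quinquefasciatus over 29 models. Of 13 compared, 1 was counted as higher in molestus and 2 as higher in quinquefasciatus, against 22.8% and 18.0% of all compared models. Of the 29, 6 were at 0 reads in molestus and 5 in quinquefasciatus. The median log2 ratio of the 13 was -0.67, with 11 below 0, against 5701 of all 12789 compared models. Intervals lay wholly below 1 for 9 of the 13, against 31.2% of all compared models. However, CPIJ009033, CPIJ009271, CPIJ016566 and CPIJ009506 reached 1 RPKM only in quinquefasciatus. Their direction followed from the filter, so the counts and median support nothing. The sum rested largely on the vitellogenic carboxypeptidase CPIJ008608, at 371 RPKM in molestus and 146 RPKM in quinquefasciatus. Without it, a choice made after the values were seen, the sum was 244 RPKM in molestus and 396 RPKM in quinquefasciatus. Models named after proteins of hemocytes, the blood cells that carry out melanization, summed to 237 RPKM in molestus and 190 RPKM in quinquefasciatus over 13 models. Of 9 compared, 1 was counted as higher in molestus and 2 as higher in quinquefasciatus, against 22.8% and 18.0% of all compared models. The 1 higher in molestus, CPIJ013743, is described as an integrin beta-1-binding protein and came in by text matching. It stood at 47.7 RPKM in molestus and 14.3 RPKM in quinquefasciatus. The part of both tissues in the levels of peptides, serpins and Toll models was not tested.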

How the data were processed

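The authors deposited, per the file headers, the count of uniquely assigned reads of each transcript model, its RPKM and the percent of its length covered. Counts summed to the header totals, RPKM recomputed to the deposited values, and an unlisted model was taken as 0 reads. The sources used here do not give the aligner, the counter or the gene model release. Both libraries were counted on the same models, and whether reads of both taxa match them equally well was not tested. A difference in RNA and one in matching therefore cannot be told apart for any fold. In molestus and in quinquefasciatus, the median covered share was 59.6% and 96.0% for lysozymes and 55.3% and 73.6% for serpins. It was 52.5% and 61.9% for the Toll group and 89.9% and 89.2% for antimicrobial peptides. Libraries were non-directional, per the labels' protocols, so strand is not kept.

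Members and lists were text patterns on the descriptions, chosen with earlier results of these data known. Of the identifiers, 0 matched the reference gene list, so no sequences or positions are given. By rule, 28 of 59 members were named: all antimicrobial peptides and the prophenoloxidase, and in larger groups the 6 most abundant, up to 5 furthest in each direction at 10 RPKM and 50 reads or more, and those at 0 reads in 1 library with 10 or more in the other. Other members, mostly rare serpins, toll models and neighbours by identifier, were named after their values were seen. So were dorsal, Sog, CPIJ008608, CPIJ010568, CPIJ012929, CPIJ013743 and the further yellow models. The same holds for the fat body, easter and snake models cited for the filter.

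Folds and shares have exact (Clopper-Pearson) 95% intervals, and models at 0 reads in 1 library were set against a floor of 3 reads. The procedure was tested on simulated counts. TMM factors were computed with edgeR 4.0.16 under R 4.3.3, intervals with scipy 1.17.1, tables with pandas 2.3.3 and numpy 2.4.6, and figures with matplotlib 3.10.9, under Python 3.11.15.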

Additional observations from a re-analysis of the deposited data

How the results depend on the processing

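The 9 alternatives for counts and medians changed the pseudocount, the filter, the scale, the threshold, the floor or the minimum covered share. Counts are given as at least 2-fold higher in molestus and in quinquefasciatus, and the cause of each change was not tested unless fewer models or a stricter threshold brought it. At a pseudocount of 10 the antimicrobial peptides in molestus were 1, lysozymes were 0 and 3 with a median of -1.07, serpins in quinquefasciatus 0, the Toll group 1 and 1, and all members 4 and 4. At a minimum of 10 RPKM, which left fewer models, lysozymes in molestus were 0, serpins in quinquefasciatus 0, the Toll group 1 and 2, and all members in quinquefasciatus 6. There the medians of serpins (0.62), the Toll group (0.42) and all members (0.34) turned positive. The median over all models of the series at that minimum was 0.47, against 0.18 at the main filter. With a covered share of at least 50% the medians of serpins (0.08) and the Toll group (0.19) also turned positive, lysozymes in molestus were 0 and the Toll group in quinquefasciatus 2. Rescaling by the median ratio or by TMM left 0 lysozymes higher in molestus. At a 4-fold threshold antimicrobial peptides were 1 in molestus, lysozymes 0 and 2, serpins 0 and 0, the Toll group 0 and 1, and all members 1 and 3. Setting 0 reads to the floor left 1 Toll model higher in molestus. As shares of summed RPKM, in molestus and in quinquefasciatus, antimicrobial peptides were 0.1287% and 0.1631%, lysozymes 0.0094% and 0.0302%, serpins 0.0687% and 0.0391%, the Toll group 0.0300% and 0.0212%, and all members 0.2368% and 0.2535%. The negative median of the lysozymes and the positive median of the antimicrobial peptides kept their sign under every alternative that gives a median. Both groups hold models that reached 1 RPKM in 1 library only, so these medians support nothing. The prophenoloxidase was not compared, so it has no median. No paired analysis was possible because each taxon had 1 library. With 1 library per taxon, depth limits models under about 10 reads, where folds of several times lie within counting error.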
